A study of Ptychodera flava with 8 samples.

Results

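Unusually wide stretches of accessible chromatin were followed through early development of Ptychodera flava, an acorn worm and so an invertebrate deuterostome. The 4 deposited peak lists were merged wherever peaks shared 1 bp or more, and a merged region was taken as broad where any list held a peak in it of more than 1000 bp. This gave 603 broad regions of 82811 merged regions (0.728%). They held 844 broad peaks, never more than 1 per list and region, and 3191 of the 202721 peaks in all. The regions were thus chosen by peak width in these same lists, so their widths are given below as a description and no test was made on them.

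The libraries came from whole animals at 4 stages (early blastula, then the early, mid and late gastrula), with 2 libraries per stage. In every group embryos were pooled to 75000 cells per sample, N-acetylcysteine was used against the jelly coat, DTT in alkaline seawater came next, and the lysed cells were exposed to Tn5 transposase. The labels give no strain, genotype or experimental treatment and set the groups apart by stage alone, and a whole embryo mixes all its cell types. Each stage has 1 peak list without a value per replicate, so differences between stages have no replicate check and no p-value was computed. The labels do not tell whether the 2 libraries of a stage were separate cultures. The lists hold no read counts, so depth is unknown, and all intervals below are Wilson 95% intervals that cover counting error of regions or peaks only.

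In ATAC-seq the transposase inserts adapters where DNA is free of nucleosomes, and a peak caller joins neighbouring windows of signal into 1 interval. A promoter or enhancer usually gives a narrow peak around a single nucleosome-free site. A wide peak can hold several such sites side by side, with a single summit that marks the position of strongest signal. At the blastula stage the embryo is a hollow sphere, and during gastrulation part of its wall moves inward to become the gut. Neither the labels nor the files name a genome build, so no sequence or gene is assigned to a region and positions are 1-based coordinates on the authors' scaffolds.

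The early blastula list was the richest in broad peaks. It held 393 (0.849% of its peaks, 0.77 to 0.937%). The lists of the early, mid and late gastrula held 198 (0.409%), 118 (0.272%) and 135 (0.209%). By share of its own list, late gastrula was thus the poorest in broad peaks. Most exceeded the limit by little, with a median width of 1115, 1093, 1080 and 1089 bp from early blastula to late gastrula. Peaks over 1500 bp numbered 14, 2, 2 and 4 in the same order. Over all peaks, the 99th percentile of width was 973, 877, 845 and 793 bp. All 4 lists had the same narrowest peak, 100 bp, and the same shortest gap between neighbouring peaks, 11 bp.

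Most regions were broad in 1 list only. Of the 603 regions, 440 were broad in 1 list, 103 in 2, 42 in 3 and 18 in all 4. Regions broad at early blastula alone formed the largest class, with 283 (46.9%). Next came 67 regions broad at early gastrula alone, 56 at late gastrula alone, 49 at early blastula and early gastrula, and 34 at mid gastrula alone. The other 10 combinations, including the 18 regions broad at all stages, held at most 19 regions each.

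**Figure D1:**
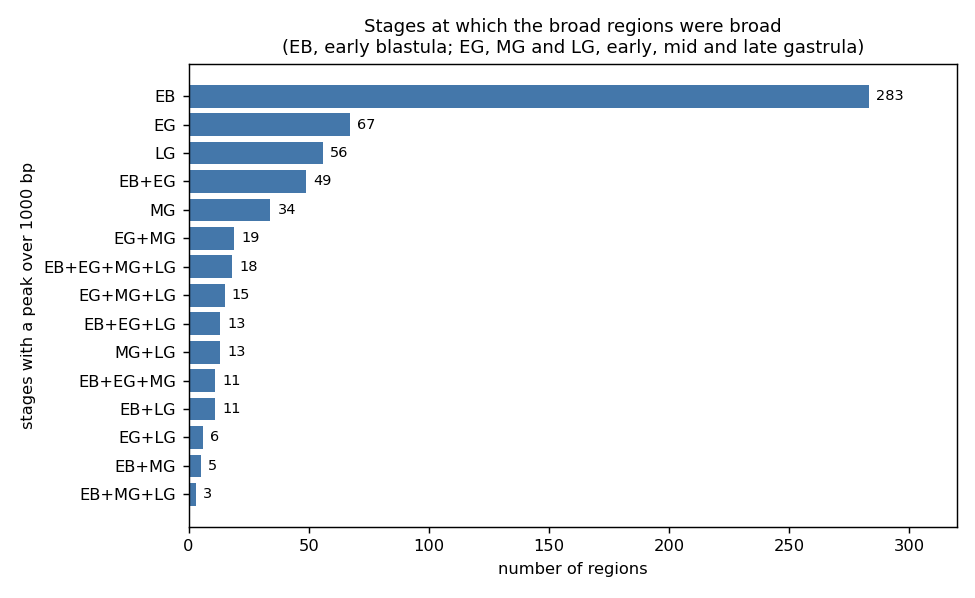
Number of broad regions (horizontal axis) for each combination of stages at which a region held a peak over 1000 bp (vertical axis). The bar for early blastula alone, 283 regions, is longer than the bars for early gastrula alone (67), late gastrula alone (56) and mid gastrula alone (34), and 18 regions were broad at all 4 stages.

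Most broad regions held a peak in every list. Of the 603, 528 held a peak at all 4 stages (87.6%, 84.69 to 89.96), against 28.7% of all other merged regions. Regions of the next width class, whose widest peak was above 750 and at most 1000 bp, held a peak at all stages in 79.9% of 2204 cases (78.2 to 81.6). Width eases an overlap between lists, and its part in these shares was not tested. From early blastula to late gastrula, 24, 23, 44 and 24 broad regions had no peak. The mid gastrula list, with 44 missing, is also the shortest, at 43317 peaks.

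Over the 603 regions the median widest peak was lower at each later stage, while the summed width of the peaks changed less. The median of the widest peak was 1052, 801, 707 and 667 bp from early blastula to late gastrula. The choice of regions sets this in part, since 393 were broad at early blastula. In the 283 regions broad at early blastula alone this median was 1100, 603, 555 and 533.5 bp. In the 56 broad at late gastrula alone it was 563, 640, 705 and 1081.5 bp. The median covered width, which is the summed width of the peaks of a stage in the region, was 1073, 1001, 898 and 908 bp in the same order. In the rest of the merged regions the median covered width was 294, 294, 302 and 276 bp. The number of peaks per region was higher at the gastrula stages. A broad region held 2 or more peaks in 16.6% of cases at early blastula and in 35.7%, 35.1% and 44.2% at the early, mid and late gastrula, and the peaks inside the 603 regions numbered 684, 826, 788 and 893. Among all other merged regions, 2 or more peaks of a stage occurred in 1.96%, 2.69%, 2.74% and 2.85%.

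**Figure D2:**
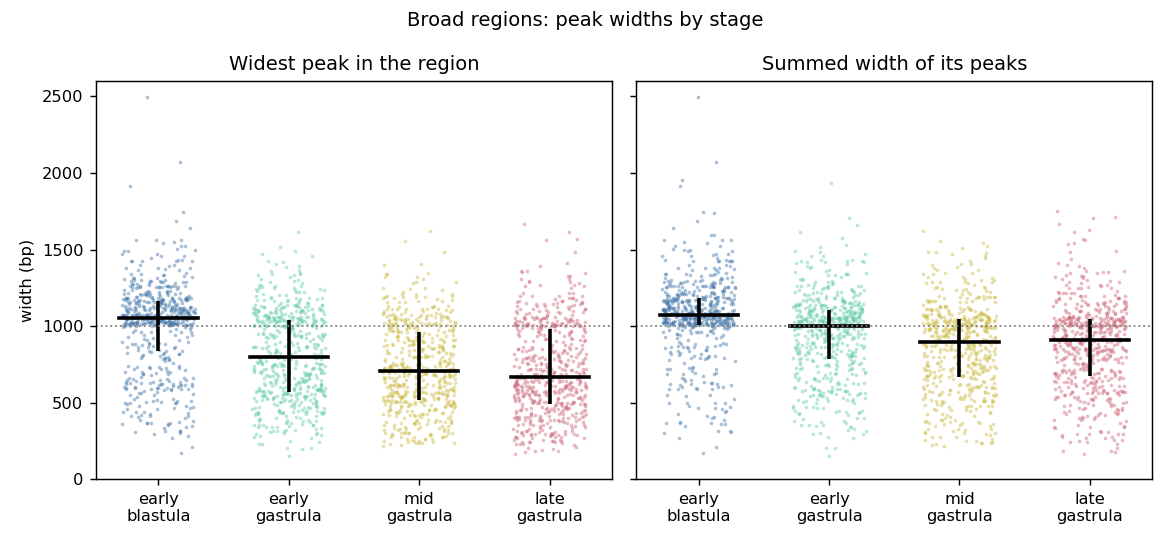
Width in bp (vertical axis) of the widest peak (left) and of all peaks summed (right) in each broad region with a peak at the stage given on the horizontal axis. Each point is a region, horizontal bars are medians, vertical bars run between the quartiles, and the dotted line is the limit of 1000 bp. From early blastula to late gastrula the medians of the widest peak are 1052, 801, 707 and 667 bp, and those of the summed width 1073, 1001, 898 and 908 bp.

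Each later list was then set against early blastula, region by region, to ask whether broad regions narrowed or split. A region was called narrowed where its covered width was under 0.8 of that at early blastula, widened above 1.25, and split where it held at least 2 peaks and more than at early blastula. At early gastrula 183 of 558 broad regions with a peak in both lists were narrowed (32.8%, 29.0 to 36.8), where all merged regions gave 15.4%. At mid gastrula 248 of 537 were narrowed (46.2%, 42.0 to 50.4), with 19.7% over all merged regions. At late gastrula it was 262 of 556 (47.1%, 43.0 to 51.3), with 20.9% over all. The next width class was narrowed in 27.7%, 38.3% and 39.8% at the early, mid and late gastrula, nearer to the broad regions than to all regions. The median ratio of covered width was 0.926, 0.843 and 0.825 for the early, mid and late gastrula over early blastula, against 0.988, 0.979 and 0.975 in the rest of the regions. The choice of list bears on this: with regions chosen on late gastrula alone, the ratio was 1.01, 1.004 and 1.11. With the same share of widest peaks taken from each list, 20.9%, 30.1% and 31.2% were narrowed, and with a limit of 1500 bp, which leaves 18 regions, 50%, 75% and 68.8%.

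Splitting was about as frequent as narrowing at early gastrula. It was called in 168 of 558 regions at early gastrula (30.1%, 26.4 to 34.0). The mid gastrula had 168 of 537 (31.3%, 27.5 to 35.3) and the late gastrula 215 of 556 (38.7%, 34.7 to 42.8). All merged regions gave 3.21%, 3.6% and 4.94%, and a narrow peak has little room to split. Regions of the next width class were split in 16.8%, 17.9% and 25.7%. Narrowing and splitting met in the same region in 59, 77 and 104 cases at the early, mid and late gastrula. The opposite change was less frequent in this set: widening was called in 78 regions (13.98%), 67 (12.5%) and 70 (12.6%), against 10.3%, 11.9% and 12.1% of all merged regions. Many split calls rested on short gaps. With peaks less than 150 bp apart counted as 1, a setting chosen after seeing the data, the share of split regions was 8.24%, 9.5% and 13.8% at the early, mid and late gastrula. It was 18.9%, 17.6% and 25.8% with peaks of an IDR of at most 0.01, where IDR is the irreproducible discovery rate the authors' lists carry for each peak, and 15.1%, 16.8% and 21.4% where at least 2 peaks had to lie wholly inside 1 early blastula peak. With a limit of 750 bp it was 19.8%, 20.9% and 28.7%. With every list cut to 43317 peaks, the late gastrula share was 28.7%.

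The 393 regions broad at early blastula were followed in detail. Of these, 91 were still broad at early gastrula (23.2%, 19.3 to 27.6). The mid gastrula list had 37 still broad (9.41%, 6.91 to 12.7) and the late gastrula list 45 (11.5%, 8.67 to 15.0). In 283 (72.0%) no later list held a broad peak. Most lost it at the first step: 302 were not broad at early gastrula, another 62 stopped being broad after that stage, and 11 more after the mid gastrula. In 32 a broad peak returned after a list without one. Among the 348 with a peak in all lists, covered width was lower at early gastrula than at early blastula in 314, lower at mid than at early gastrula in 241, and lower at late than at mid gastrula in 176. It was lower at every step in 88. Covered width was lowest at early blastula in 5 of the 348, and at the early, mid and late gastrula in 63, 137 and 143.

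At late gastrula, 371 of the 393 still had a peak. Of these, 184 were split (49.6%, 44.5 to 54.7), 136 were narrowed without a split and 51 were neither, while 2 of the split regions were widened. The median covered width was 896 bp at late gastrula against 1134.5 bp at early blastula in the split regions. In those narrowed without a split it was 603.5 bp at late gastrula against 1098.5 bp at early blastula. The definitions of both classes set this order in part.

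A region chosen for a wide peak in 1 list can be narrower in another list for that reason alone, and these lists cannot tell this apart from a change with stage. The opposite reading is given beside the first as a description, from the same widths that chose the regions. The 135 regions broad at late gastrula, read at early blastula, were narrowed in 47 of 123 (38.2%) and split in 33 (26.8%). The regions broad at early blastula, read at late gastrula, were narrowed in 63.9% and split in 49.6%. The sets differ in size, with 45 regions in both, and the late gastrula list holds 64713 peaks against 46275 at early blastula. With the 118 widest peaks of each list, regions chosen at early blastula were narrowed at late gastrula in 65.5% and split in 58.2%. Those chosen at late gastrula were narrowed at early blastula in 36.8% and split in 29.2%. Among later stages, regions broad at mid gastrula were also broad at early gastrula in 63 of 118 cases (53.4%, 44.4 to 62.1). Regions broad at late gastrula were broad at early gastrula in 52 of 135 (38.5%, 30.7 to 46.9) and at mid gastrula in 49 (36.3%, 28.7 to 44.7).

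**Figure D3:**
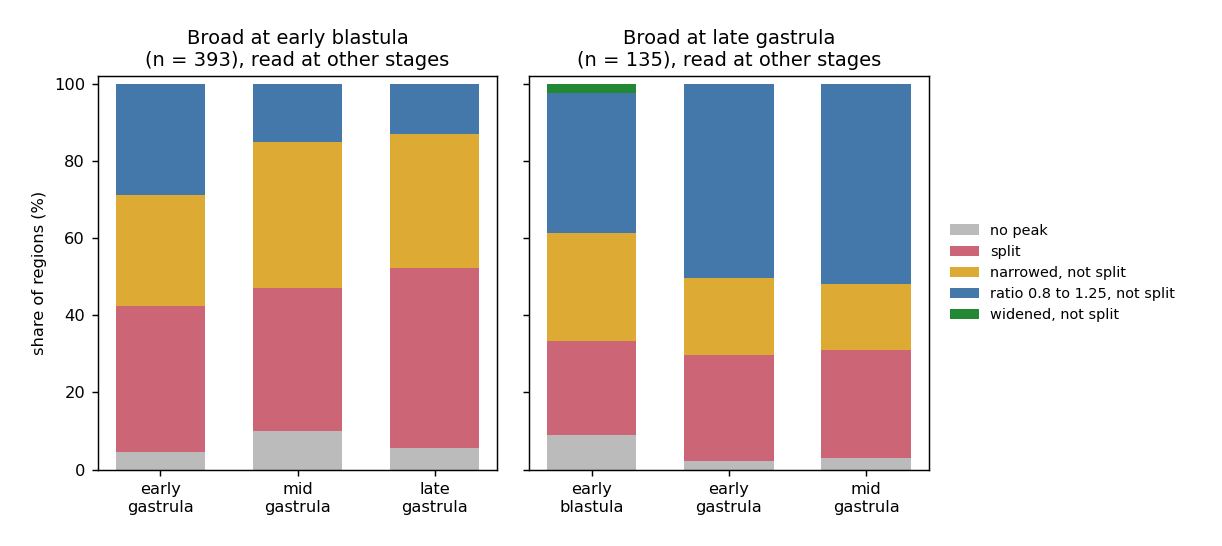
Share of regions in percent (vertical axis) by what was found at the stage on the horizontal axis, for the 393 regions broad at early blastula (left) and the 135 broad at late gastrula (right). Narrowed means a covered width under 0.8 of that at the stage of choice, split means more peaks and at least 2. Split regions make up 46.8% of the left set at late gastrula and 24.4% of the right set at early blastula, counting regions without a peak in the total.

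The site of strongest signal at early blastula was usually still inside a peak later. It was so in 368 of 375 regions at early gastrula (98.1%), 344 of 354 at the mid gastrula (97.2%) and 356 of 371 at the late gastrula (96.0%). The nearest later summit lay within 50 bp in 71.5%, 72.0% and 70.6%, at a median distance of 14, 16 and 15 bp. By the summit of highest enrichment, the share within 50 bp was 68.0%, 67.2% and 64.7% in these regions. It was 73.5%, 67.9% and 65.6% in the next width class and 86.1%, 82.8% and 82.7% in the rest. Read backwards, the summits of broad late gastrula peaks lay inside an early blastula peak in 117 of 123 regions (95.1%), but the nearest early blastula summit was within 50 bp in 48.8%, at a median of 53 bp. The median share of the broad early blastula peak still covered by peaks was 81.2%, 70.9% and 70.9% at the early, mid and late gastrula. Under 50% of it was covered in 56, 81 and 78 regions. A position in such a peak was thus often inside a later peak, summit or not. The share of summits inside a later peak was not counted in the next width class or the rest.

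Where a region broad at early blastula had 1 peak at both stages, the later peak was often shorter at a single side. At late gastrula this held for 180 regions: 108 had drawn in by over 50 bp at 1 edge, 52 at both edges and 20 at neither. The median retreat was 94.5 bp at the left edge and 113.5 bp at the right. At early gastrula 133 of 219 had drawn in at 1 edge, 27 at both and 59 at neither, and at the mid gastrula 122, 55 and 27 of 204. Read backwards, 79 regions broad at late gastrula had 1 peak at both stages. Their early blastula peak was drawn in at 1 edge in 31, at both in 19 and at neither in 29. The medians were 15 bp at the left edge and 38 bp at the right.

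The gaps between later peaks that overlapped a broad early blastula peak were mostly short and seldom held the early blastula summit. At late gastrula 184 broad early blastula peaks were overlapped by 2 or more peaks, which left 229 gaps with a median of 69 bp (quartiles 41 and 197) and a range of 11 to 724 bp. Of these gaps 70.7% were under 150 bp, about the length of DNA in a nucleosome, and in 122 of the 184 regions all gaps were. The median gap was 62 bp at early gastrula and 58.5 bp at the mid gastrula. The pieces at late gastrula had a median width of 346 bp, and those at the early and mid gastrula 397 and 393 bp. The early blastula summit fell in a gap in 0, 1 and 2 regions at the early, mid and late gastrula. In 153 of the 181 late gastrula regions with that summit in a piece (84.5%), the piece was the one of highest enrichment. Read backwards, 37 broad late gastrula peaks were overlapped by 2 or more early blastula peaks, with 41 gaps (median 67 bp). Of these gaps 80.5% were under 150 bp. The late gastrula summit fell in a gap in 0 regions, and in the piece of highest enrichment in 24 of 37 (64.9%). Short gaps away from the summit were thus found in both directions. Such gaps take up little of a broad peak (median width 1115 bp at early blastula), which leaves little room for a summit in them. The part of gap length in these counts was not tested. Neither the counts nor the shares in the piece of highest enrichment were set against other regions.

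The summit was spread over the length of broad peaks. When each peak was cut into 3 equal parts, the summit of broad early blastula peaks lay in the first part in 130, in the central part in 136 (34.6%, 30.1 to 39.4) and in the last part in 127. The central share was 37.9%, 33.1% and 37.0% at the early, mid and late gastrula. In peaks of at most 1000 bp it was 76.9%, 80.2%, 80.7% and 83.0% from early blastula to late gastrula. Peaks above 750 and up to 1000 bp gave 33.9%, 37.6%, 34.9% and 39.4%, close to the broad peaks. The highest-enrichment summit at late gastrula lay over 300 bp from that at early blastula in 104 of 556 broad regions (18.7%), in 14.05% of the next width class and in 1.9% of the rest.

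Broad peaks ranked higher by −log10 p than by enrichment. Enrichment is the authors' fold over background in column 7, and −log10 p is column 8. Both are given as percentiles within a list, the share of its peaks at or below the value. The broad peaks had a median enrichment percentile of 63.7, 58.7, 54.1 and 54.4 from early blastula to late gastrula. Their median −log10 p percentile was 84.0, 84.4, 85.6 and 84.8. The medians of enrichment itself were 7.87, 8.85, 8.79 and 8.09, against 6.996, 8.15, 8.43 and 7.73 in the whole lists. Between 36.6% of the broad peaks at early blastula and 43.2% at mid gastrula lay in the lower 50% of their list by enrichment, and between 2.96% at late gastrula and 9.6% at early gastrula did by −log10 p. The part of width itself in these percentiles was not tested.

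**Figure D4:**
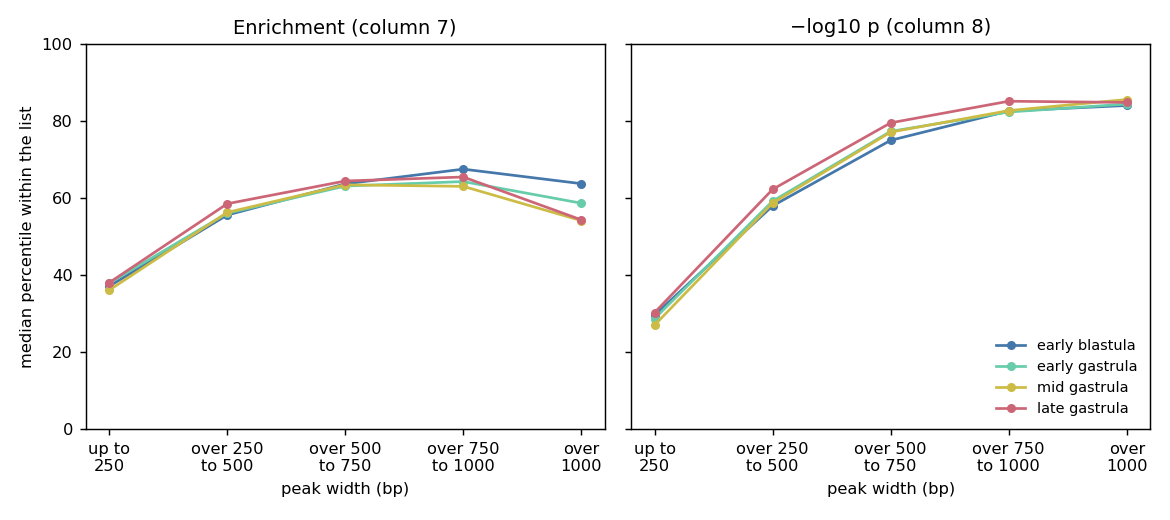
Median percentile within the list (vertical axis) of enrichment, column 7 (left), and of −log10 p, column 8 (right), for peaks in 5 classes of width in bp (horizontal axis), with a line per stage. Enrichment percentiles are lower over 1000 bp than in the class above 750 and up to 1000 bp in all 4 lists (63.7 against 67.5 at early blastula, 54.4 against 65.5 at late gastrula), while −log10 p percentiles lie between 82.3 and 85.6 in both classes.

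The rank of broad regions by enrichment had no order of stages that held under all settings. For the strongest peak of a region, the median enrichment percentile was 62.3, 62.3, 65.6 and 68.7 from early blastula to late gastrula, with quartiles of 36.8 and 81.8 at the first stage and 44.5 and 86.1 at the last. With lists of equal length it was 60.4, 58.9, 66.1 and 58.1, and so lowest at late gastrula. Taken from the widest peak it was 61.0, 57.7, 61.8 and 62.2, still highest at late gastrula but by less. Late gastrula was highest under the other settings tried as well. The cause of these differences was not tested. In the 528 regions present at all stages, the median change of this percentile against early blastula was -0.30, 1.04 and 4.26 points at the early, mid and late gastrula. All other regions present at all stages showed 1.27, 0.628 and 4.41. At late gastrula the percentile was over 20 points higher than at early blastula in 86 of the 528 (16.3%) and over 20 points lower in 33 (6.25%), against 22.1% and 9.17% of the other regions present at all stages. By −log10 p, the median change at late gastrula was 2.16 points in broad regions against 4.64 in the others, with 11.9% against 24.2% over 20 points higher. Among the regions broad at early blastula with a late gastrula peak, the median enrichment percentile was 74.5 at late gastrula against 68.7 at early blastula in the split regions. It was 72.5 at late gastrula against 63.8 at early blastula in those narrowed without a split, and 66.8 at late gastrula against 56.2 at early blastula in those that were neither. Taken region by region, the median change was 4.70 points in the split, 5.54 in the narrowed and 3.46 in those that were neither. The medians by stage therefore do not give the order of the changes.

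The widest peak of all lists stood on scaffold 61 at early blastula, 521654 to 524147, a width of 2494 bp. The same region had single peaks of 582, 641 and 583 bp at the 3 gastrula stages. All of these lay at its right end and contained its early blastula summit at 523785. Its enrichment percentile was 18.1, 28.4, 39.8 and 42.2 from early blastula to late gastrula. This region narrowed at 1 side without a split.

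Next in width were 2 regions on scaffold 6, and both split. The early blastula peak at 43467845 to 43469916 (2072 bp) was followed by 3, 3 and 4 peaks at the gastrula stages, with covered widths of 1934, 1524 and 1704 bp. Its early blastula summit at 43468476 had a summit at 43468470 in each of the 3 later lists. The early blastula peak at 37710837 to 37712748 (1912 bp) was likewise followed by 3, 3 and 4 peaks, but with covered widths of 1305, 1384 and 1088 bp. Its enrichment percentile was 57.6, 48.5, 45.5 and 49.0 from early blastula to late gastrula. A maximum of 4 late gastrula peaks was shared by 6 broad regions, and the one next in early blastula width lay on scaffold 17, where the early blastula peak at 27765373 to 27766923 (1551 bp) had a summit at 27766824. A summit was at 27766824 or 27766825 in every later list as well, in the rightmost peak.

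The 3 regions of highest summed enrichment percentile were all broad at early blastula alone. On scaffold 11 at 42911412 to 42912736, the enrichment percentile lay between 99.8 and 99.9 in all lists. Its single peak was 1325, 825, 656 and 714 bp wide from early blastula to late gastrula, and its summit stayed within 42911916 to 42911927. On scaffold 12 at 22285933 to 22286994 the peak was 1055, 342 and 301 bp wide up to the mid gastrula. At late gastrula a peak of 297 bp remained at the right end and a weaker peak of 229 bp, with an enrichment percentile of 24.97, lay at the left end. On scaffold 15 at 34869962 to 34870969 the widths were 1008, 781, 797 and 493 bp from early blastula to late gastrula, and the enrichment percentiles 96.8, 98.8, 99.6 and 99.4.

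**Figure D5:**
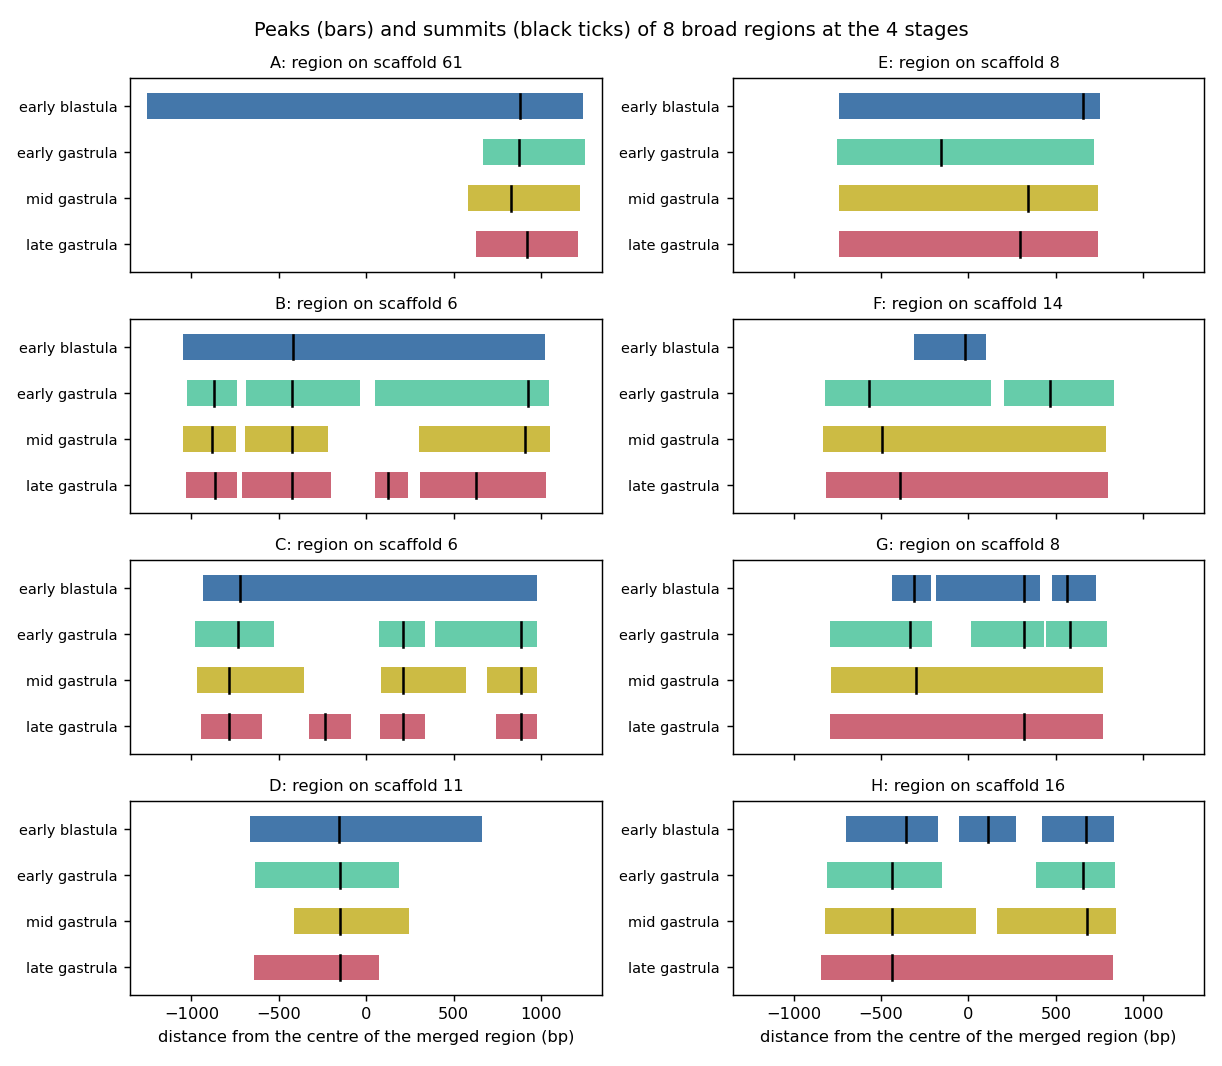
Peaks (bars) and summits (black ticks) in 8 broad regions at the 4 stages (vertical axis), by distance in bp from the centre of the merged region (horizontal axis). A is the region on scaffold 61 that narrowed at 1 side, B and C the 2 on scaffold 6 that split, D the strong region on scaffold 11, E a region on scaffold 8 broad at all stages, and F to H the regions on scaffolds 14, 8 and 16 that were broad at late gastrula and not at early blastula.

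The 3 lowest ratios of covered width belonged to regions whose late gastrula peaks were small and of low rank. On scaffold 17 at 39769291 to 39770573 a peak of 1254 bp at early blastula was matched by no peak at early or mid gastrula and by 183 bp at late gastrula, at the left edge and away from the early blastula summit. The ratio of covered width, late gastrula over early blastula, was 0.146. On scaffold 21 at 3852719 to 3853981 the covered width was 1263, 423, 238 and 186 bp from early blastula to late gastrula, the second value in 2 peaks, and the enrichment percentile was 22.6, 12.3, 5.54 and 4.35. On scaffold 8 at 36819791 to 36820889 the widths were 1099, 503, 511 and 168 bp, with percentiles of 11.8, 7.03, 2.18 and 1.46.

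The 18 regions broad at all 4 stages had stable outlines. Their ratio of covered width, late gastrula over early blastula, ranged from 0.788 to 1.24, and their median covered width was 1164.5, 1189.5, 1158.5 and 1176.5 bp from early blastula to late gastrula. In the 17 of them with 1 peak at every stage, the starts ranged over a median of 40 bp between lists and the ends over 56 bp. The summits ranged over a median of 390 bp, and by over 300 bp in 11 of the 17. In the 150 other broad regions with 1 peak at every stage, starts, ends and summits ranged over medians of 239.5, 234.5 and 60.5 bp. The rest of the series with 1 peak at every stage, 20971 regions with a median merged width of 382 bp, gave 34, 35 and 25 bp. Being broad in every list limits how far the edges can range. The rule did not use the summits, but a summit can range only within its peak, so these wide peaks leave it more room.

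The largest summed width among the 18 belonged to a region on scaffold 8 at 41731122 to 41732623, with peaks of 1489, 1470, 1486 and 1484 bp from early blastula to late gastrula. Its starts lay within 41731122 to 41731135, but its summits were at 41732529, 41731715, 41732212 and 41732167. Its enrichment percentile was 47.8, 45.1, 42.9 and 65.96. A region on scaffold 9 at 15354538 to 15356002 had widths of 1455, 1396, 1341 and 1393 bp, and a region on scaffold 4 at 15237789 to 15239312 had 1424, 1416, 1404 and 1291 bp. By enrichment these constant broad regions were of middle rank, with a median percentile of 47.5, 44.8, 50.3 and 55.8 from early blastula to late gastrula.

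At early blastula, 210 of the 603 regions were not broad. The 56 regions broad at late gastrula alone had a median covered width of 818, 893, 914 and 1091 bp from early blastula to late gastrula. At early blastula 7 of them had no peak and 21 had 2 or more, and 5 had 2 or more at late gastrula. The widest was on scaffold 16 at 33242657 to 33244339. It held 3, 2 and 2 peaks in the earlier lists and 1 of 1668 bp at late gastrula. A region on scaffold 4 at 19866282 to 19867848 had no peak in the 3 earlier lists and a peak of 1567 bp at late gastrula, of low rank (enrichment percentile 7.96, −log10 p percentile 18.1). On scaffold 13 at 14964895 to 14966341 the covered width was 818, 353, 1304 and 1414 bp from early blastula to late gastrula.

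Broad peaks at mid and late gastrula together were found in 13 regions that were broad at neither earlier stage. On scaffold 14 at 6956905 to 6958566, a peak of 414 bp at early blastula was followed by 2 peaks covering 1578 bp at early gastrula and by single peaks of 1619 and 1613 bp after that. Its enrichment percentile was 21.6, 55.4, 41.5 and 51.6. On scaffold 8 at 15491951 to 15493540, 3 peaks at early blastula and 3 at early gastrula gave way to single peaks of 1557 and 1564 bp, at enrichment percentiles of 11.2, 9.86, 15.4 and 19.5. The highest ratios of covered width, late gastrula over early blastula, were 5.77 on scaffold 9 at 36976412 to 36977432 and 4.92 on scaffold 15 at 17302992 to 17304035, followed by 3.9 for the region on scaffold 14. In the scaffold 9 region the summit was at 36977281 at late gastrula, against 36976507 at early blastula.

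Regions with the widest early gastrula peaks followed different courses. On scaffold 2 at 49522170 to 49523782 peaks of 1525 bp at early blastula and 1613 bp at early gastrula were followed by none at mid or late gastrula. The enrichment percentile was 53.9 at early blastula and 19.2 at early gastrula. On scaffold 8 at 2845414 to 2847307 peaks of 1560 and 1514 bp at these stages were followed by 2 peaks at mid gastrula, covering 1404 bp, and 2 at late gastrula, covering 1320 bp. The summit of its main peak stayed within 2846195 to 2846199. On scaffold 16 at 9599437 to 9600956 no early blastula peak was found, and peaks of 1493, 1252 and 1250 bp at the 3 gastrula stages had summits within 9600130 to 9600142.

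At the limit the choice of regions turned on single bases. The regions just inside had a widest peak of 1001 bp: on scaffold 13 at 13671431 to 13672431 the early gastrula peak had 1001 bp and the late gastrula peak 1000 bp, on scaffold 18 at 21506127 to 21507127 the early blastula peak was the broad one, and on scaffold 24 at 8567508 to 8568541 the late gastrula peak was. Just outside, with a widest peak of 1000 bp, were a region on scaffold 14 at 13259283 to 13260300 and 2 regions on scaffold 19, at 30358151 to 30359355 and 30473761 to 30474777.

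Broad regions were spread over the genome. Of the 603, 598 were on the 27 largest scaffolds (10 Mb or longer), each of which had 1 or more. Among these, the number per Mb was highest on scaffold 14 (43 regions, 1.03 per Mb) and lowest on scaffold 26 (1 region, 0.0715 per Mb). As a share of all merged regions of a large scaffold, broad regions ranged from 0.27% on scaffold 26 to 1.08% on scaffold 10, with 0.934% on scaffold 14. Among smaller scaffolds, scaffold 28 held 3 of its 125 merged regions as broad ones. The nearest other merged region was a median of 2041 bp away (quartiles 309.5 and 6030), against 1428 bp for the rest and 1339 bp for the next width class. Within 50 kb of a broad region lay a median of 13 other merged regions, and 12 around the rest. The nearest other broad region was a median of 445990 bp away, and no pair was closer than 5184 bp.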

How the data were processed

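ATAC-seq peaks of 4 stages were analysed. MACS2, Bowtie2 and bedtools appear in the submitters' processing notes with no version or role. Alignment settings, the shift for Tn5 insertion, the pooling of replicates and the genome build are not stated in the labels or files. Each stage has 1 list that the authors deposited, 12 columns without a header, read here in the layout of the IDR tool (irreproducible discovery rate, which keeps peaks that rank alike between replicates). The deposited columns used hold a score of at most 1000, a fold enrichment ratio (column 7), −log10 p (column 8), the summit offset and −log10 of the global IDR. The highest IDR was 0.1, so weaker peaks are absent.

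Lists were merged at an overlap of 1 bp, and widths, peaks, summits and percentiles were followed per region. Stage calls are thresholds (0.8, 1.25), not tests. Regions and rules were chosen with earlier results of these data known. Named regions are the 3 with the widest peak per list, the 3 lowest and 3 highest ratios of covered width, the 3 with most late gastrula peaks (of 6 tied at 4, those widest at early blastula), the 3 highest by summed enrichment percentile, the 3 widest broad at all stages and at late gastrula alone, and 3 on each side of the limit. The tolerance of 50 bp, the gap of 150 bp, the summit distance of 300 bp and the 118 widest peaks were chosen after seeing the data. As a check of the code, the calling steps recovered 100% of the changes in 2000 simulated regions, for narrowed, split, widened and absent regions. These changes were made without noise and well past the thresholds, so the check does not measure how reliable the calls are here. Matplotlib 3.10.9, SciPy 1.17.1, pandas 2.3.3, NumPy 2.4.6 and Python 3.11.15 were used. The alternatives tried are other width limits, a stricter IDR, equal list lengths, other measures of width and of splitting, and other choices of list.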

Additional observations from a re-analysis of the deposited data

How the results depend on the processing

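No paired analysis was possible because no list holds values per replicate, and for the same reason no replicate could be left out. Of 152 values under alternatives, 48 stayed within the limits set for them, 101 moved past them, and 3 turned direction. Values are given for the early, mid and late gastrula against early blastula. The cause of these shifts was not tested.

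With regions chosen on late gastrula alone (135 regions), the median ratio of covered width turned to 1.01, 1.004 and 1.11, with 13.2%, 13.2% and 2.44% narrowed and 15.7%, 19.8% and 3.25% split. Their enrichment percentiles were 50.6 at early blastula, then 51.0, 53.4 and 54.9. Chosen on early blastula alone (393 regions), the ratio was 0.831, 0.716 and 0.731, with 45.9%, 63.6% and 63.9% narrowed and 39.7%, 41.2% and 49.6% split. With the same share of widest peaks from each list, the ratio was 0.99, 0.953 and 0.957, with 20.9%, 30.1% and 31.2% narrowed and 24.4%, 26.3% and 29.7% split.

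A width limit of 750 bp gave 2807 regions, 81.6% of them with peaks at all stages, ratios of 0.952, 0.891 and 0.884, 28.9%, 40.1% and 41.5% narrowed, and 19.8%, 20.9% and 28.7% split. A limit of 1500 bp gave 18 regions, 83.3% of them with peaks at all stages, ratios of 0.795, 0.571 and 0.573, 50%, 75% and 68.8% narrowed, and 43.8%, 37.5% and 43.8% split, with enrichment percentiles of 53.9 at early blastula and 52.0 at early gastrula. An IDR of at most 0.01 gave ratios of 0.781 and 0.759 at the mid and late gastrula, 40.9%, 52.9% and 56.0% narrowed, and 18.9%, 17.6% and 25.8% split, with 80.3% present at all stages and enrichment percentiles of 47.3 at early blastula, then 47.9, 49.1 and 52.1. Lists cut to equal length gave 28.7% split at late gastrula and percentiles of 60.4 at early blastula, then 58.9, 66.1 and 58.1.

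Measured by the widest peak, the ratio was 0.831, 0.689 and 0.637, with 48.6%, 58.3% and 62.6% narrowed. Measured by the span, it was 0.97, 0.898 and 0.919, with 27.1%, 38.9% and 35.6% narrowed. Narrowing defined as under 0.67 gave 21.9%, 32.2% and 31.5%, and under 0.9 gave 45.2%, 57.9% and 60.1%. Splits counted inside 1 early blastula peak with at least 2 peaks wholly within it made up 15.1%, 16.8% and 21.4%. With peaks less than 150 bp apart counted as 1, chosen after seeing the data, splits made up 8.24%, 9.5% and 13.8%. The enrichment percentile of the widest peak was 61.0 at early blastula, then 57.7, 61.8 and 62.2. Ranked by −log10 p, the percentile was 83.2 at early blastula, then 83.1, 83.4 and 86.8.

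The peak lists hold no counts, so neither depth nor the spread between replicates limits these values in a way that can be stated. Peaks above the IDR limit of the lists were not analysed here.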
